A study of Homo sapiens with 9 samples.

Results

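The enzymes that oxidize and conjugate foreign compounds were followed in HT29 cells, a human colorectal adenocarcinoma line. They were taken by name, as every listed gene of the cytochrome P450 (CYP), UDP-glucuronosyltransferase (UGT), glutathione S-transferase (GST and the microsomal MGST), sulfotransferase (SULT) and aldehyde dehydrogenase (ALDH) families, without CYP51A1 and without pseudogenes. Of 11678 gene names in the 3 deposited tables, 63 met this rule: 62 coding genes and the antisense RNA CYP1B1-AS1. Counts of enzymes below include this RNA where it was listed, although it encodes no enzyme. GENCODE release 29 annotates 128 protein-coding genes with such names. Of the 63, 17 were listed between the 2 conditioned media (CM), 52 between CRC-MPS CM and control, 50 between ESC CM and control, and 7 in all 3 tables.

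RNA was sequenced in 3 libraries per group. The first group of cells had received CM of the colorectal cancer microphysiological system (CRC-MPS) for 24 h. By the study's methods, this culture held minced epiploic adipose tissue (EPAT) of obese individuals together with HT29-GFP cells, between sheets of EPAT-derived stromal cells (ESC), and the labels call its CM only that of adipose tissue. The second group had received CM of ESC for 24 h, and the control cells were serum-starved for 24 h and given no CM. The study's methods give other starvation times before treatments, for the cancer cells in general, and the labels do not say whether the cells given CM were starved first. By the methods, the CRC-MPS and the ESC were grown with fetal bovine serum and the CRC-MPS medium was then diluted in serum-free medium, so in the comparisons with control the CM and any serum in it cannot be told apart. The number of tissue donors behind the CM was not given. The labels number the libraries of a group as biological replicates and do not describe the cultures further, so p-values measure the spread between these libraries.

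As background, CYP enzymes are heme monooxygenases of the endoplasmic reticulum and mitochondria that make lipophilic compounds more reactive or more polar. UGT, GST and SULT enzymes then attach glucuronic acid, glutathione or sulfate, and ALDH enzymes oxidize reactive aldehydes, retinal included, to acids. In the colon these enzymes act on dietary compounds, drugs, bile acids and steroids, and many of them are known targets of the aryl hydrocarbon receptor (AHR), of NRF2 (encoded by NFE2L2) and of the nuclear receptor PXR (encoded by NR1I2).

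Each table held a value per gene and library that fits TPM, a level scaled for transcript length and for the library total, and only genes that the authors had selected on p in their own test of that comparison. Genes absent from a table are called not listed, and nothing follows from that about their levels. Total reads per library were not given, so the depth is unknown. Differences are given as log2 fold changes on the log2(TPM + 1) scale with their standard error (SE), which understates the change of genes near or below 1 TPM. A gene was called higher or lower where limma gave a Benjamini-Hochberg adjusted p under 0.05, adjusted as over 20000 genes, and a fold over 1.5 on that scale. Every adjusted p below is of this kind. The smallest p of an exact permutation test on 1 gene is 0.1 with 3 libraries in each group. Values of a library that stands in 2 tables differed for these enzymes by medians of 0.0524% to 0.677%, so the control values of the 2 comparisons are not identical. All 10 markers of colon epithelium were in the table of CRC-MPS CM and control, with EPCAM at 666 ± 16.6 TPM with CRC-MPS CM and 535 ± 38.4 TPM in control (SD, n = 3 each), while 6 of them, CDX2 and KRT20 among them, were called lower. A list of 25 markers for other cells of the tissue (adipocytes, stroma, leukocytes, endothelium) had 0 genes in the table of the 2 CM, 6 in that of CRC-MPS CM and control and 7 in that of ESC CM and control. Of these 0 were called higher in either comparison, and lower calls were 4 for CRC-MPS CM and 3 for ESC CM. Their summed levels lay between 1682 and 1720 TPM with CRC-MPS CM against 1974 and 2268 TPM in control, nearly all from LYZ, and ADIPOQ, PLIN1, PTPRC, DCN and PECAM1 were listed in no table. The part of these shifts in the results below was not tested. The sequenced cells were HT29 given medium and no tissue, and control cells, given no CM, had LYZ at 2110 ± 152 TPM. In bulk RNA of such cultures, fewer HT29 cells with a transcript and less of it per cell cannot be told apart.

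With CRC-MPS CM against control, 29 of the 52 listed enzymes were called, 16 higher and 13 lower. That is 55.8% of them, beside 40.6% of all 10019 genes in the table (20.4% called higher and 20.2% called lower). Their median log2 fold change was 0.31, against -0.01 over all genes of the table. With ESC CM against control, 19 of 50 were called, 12 higher and 7 lower, which is 38% beside 37.8% of all 10007 genes (17.6% called higher and 20.2% called lower), with medians of 0.14 for the enzymes and -0.05 for all genes. With 1 TPM added, the share called with ESC CM was thus near that of the whole table. With 0.1 TPM added instead (a pseudocount of 0.1), 31 of the 50 were called with ESC CM, beside 4669 of the 10007 genes. That setting called 38 of the 52 with CRC-MPS CM, beside 4990 of the 10019 genes. CRC-MPS CM and control libraries did not overlap in 46 of the 52 enzymes, 26 of them higher in every CRC-MPS CM library and 20 lower, beside 89.4% of all genes in the table (45.3% higher and 44.1% lower). ESC CM and control libraries did not overlap in 44 of the 50, 24 higher and 20 lower, beside 90.6% of all genes (45.7% higher and 45% lower). An unadjusted p under 0.05 was reached by 90.2% of all genes of the CRC-MPS CM table and 90.6% of the ESC CM table, since the tables were selected on p. The shares of all genes in this paragraph also stand beside the counts of each enzyme class below.

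Of the 40 enzymes listed in both comparisons with control, 15 were called in both, 10 higher and 5 lower. A further 11 were called with CRC-MPS CM alone and 3 with ESC CM alone, but each had the same sign in both comparisons. Some missed the second call only on the minimum fold, such as GSTK1 with ESC CM (-0.53, limma adjusted p = 2.35e-05). No enzyme was called in the comparison of the 2 CM with each other. Both comparisons use the same control libraries, so their fold changes are set side by side and not counted as independent.

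**Figure D1:**
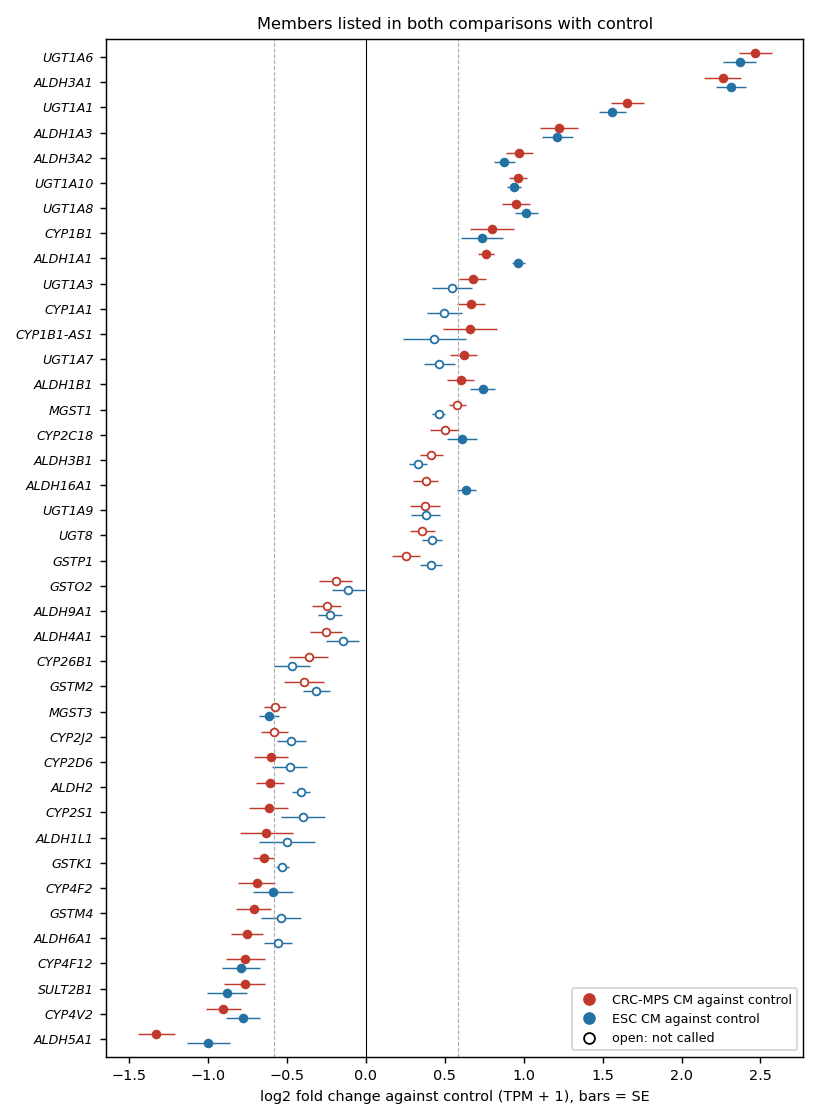
Log2 fold change on the log2(TPM + 1) scale (x axis; bars are SE) of the 40 enzymes listed in both comparisons with control (rows), with CRC-MPS CM (red, above) and ESC CM (blue, below); filled points were called, open points were not, and dashed lines mark a fold of 1.5. UGT1A6 (2.47 and 2.37) and ALDH3A1 (2.26 and 2.31) stand at the top, and ALDH5A1 (-1.33 and -0.999) at the bottom.

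UGT1A genes conjugate bilirubin, phenols, steroids and many drugs with glucuronic acid. UGT1A1, UGT1A6, UGT1A8 and UGT1A10 were called higher with both CM. All 9 genes of the locus were listed in at least 1 table. With CRC-MPS CM, 6 of 7 listed UGT1A genes were called higher and the libraries of all 7 lay above control, and with ESC CM 4 of 9 were called higher and the libraries of 8 lay above control. These genes lie nested on the plus strand of chromosome 2 (hg38), from the first exon of UGT1A8 at 233617645 to the shared end near 233773310. Each has a first exon of its own, of 855 to 1000 bases, which holds 36.6% to 40.3% of its 5-exon transcript in GENCODE, and all 9 share exons 2 to 5, from 233767034. Reads from the shared exons cannot be assigned to a gene, so the UGT1A values are estimates that depend on each other and on reads in the first exons. Those first exons fall into groups of near copies. The first exon of UGT1A10 was identical to that of UGT1A8 at 94.4% of aligned bases, to that of UGT1A7 at 92.6% and to that of UGT1A9 at 91.7%, but to that of UGT1A6 at 58.3%. The opening 60 coding bases show how little sets the UGT1A10 group apart. They are printed 5′ to 3′ from the plus strand of GRCh38, at chr2:233636523-233636582 for UGT1A10, chr2:233617708-233617767 for UGT1A8, chr2:233681938-233681997 for UGT1A7 and chr2:233671935-233671994 for UGT1A9, with capitals where a base differs from UGT1A10.
UGT1A10: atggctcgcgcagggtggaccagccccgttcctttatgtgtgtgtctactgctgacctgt
UGT1A8: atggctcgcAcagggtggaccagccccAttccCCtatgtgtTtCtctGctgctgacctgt
UGT1A7: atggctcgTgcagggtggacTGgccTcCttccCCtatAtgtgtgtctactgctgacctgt
UGT1A9: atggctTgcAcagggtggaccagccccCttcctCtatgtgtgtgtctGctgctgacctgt
In these windows UGT1A8 differed from UGT1A10 at 7 bases, UGT1A7 at 8 and UGT1A9 at 5. A read without such a base cannot separate them. UGT1A3, UGT1A4 and UGT1A5 form another group, 93.1% to 94.1% identical in their first exons, while the first exons of UGT1A6 and UGT1A1 were 58.8% identical to each other.

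UGT1A6, which conjugates small planar phenols, had 99.4, 101 and 96.3 TPM with CRC-MPS CM, against 14.7, 16.7 and 20.2 TPM in control. With ESC CM it had 87.2, 95.4 and 96.0 TPM, against 14.9, 16.7 and 20.3 TPM in control. All 6 CM libraries thus lay far above all 3 control libraries. The log2 fold change was 2.47 (SE 0.10, limma adjusted p = 2.07e-06) with CRC-MPS CM and 2.37 (SE 0.10, limma adjusted p = 2.59e-06) with ESC CM. On the log2(TPM + 1) scale these were the largest of any enzyme described here in both comparisons. By ratio of mean TPM, UGT1A6 (5.75 and 5.37) was below ALDH3A1 and below CYP1A1 and UGT1A3, which lay under 1 TPM.

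UGT1A10, an enzyme of the gut and not of the liver, was the most abundant UGT, with 242, 241 and 234 TPM with CRC-MPS CM against 128, 117 and 121 TPM in control. The ESC CM libraries had 238, 232 and 231 TPM, against 127, 117 and 121 TPM in control. Its groups did not overlap, and its log2 fold change was 0.96 (SE 0.05, limma adjusted p = 5.04e-06) with CRC-MPS CM and 0.94 (SE 0.05, limma adjusted p = 3.45e-06) with ESC CM. UGT1A8, its near copy, had 55.7, 53.4 and 48.2 TPM with CRC-MPS CM against 29.2, 24.3 and 26.5 TPM in control, and 54.2, 53.4 and 55.9 TPM with ESC CM against 28.9, 24.2 and 26.4 TPM in control. It was called higher with both, at 0.95 (SE 0.09, limma adjusted p = 4.51e-05) and 1.01 (SE 0.07, limma adjusted p = 1.44e-05) in that order. UGT1A1, the bilirubin transferase, had 20.6, 24.9 and 22.4 TPM with CRC-MPS CM, against 6.74, 6.08 and 6.62 TPM in control. Its ESC CM libraries had 22.4, 20.5 and 19.9 TPM, against 6.67, 6.06 and 6.60 TPM in control. The groups again lay apart, and the log2 fold change was 1.66 (SE 0.10, limma adjusted p = 7.08e-06) with CRC-MPS CM and 1.56 (SE 0.09, limma adjusted p = 5.06e-06) with ESC CM.

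The other UGT1A genes were below 1 TPM in every library. UGT1A3 had 0.848, 0.663 and 0.697 TPM with CRC-MPS CM against 0.122, 0.0689 and 0.0667 TPM in control, and UGT1A7 had 0.788, 0.631 and 0.767 TPM with CRC-MPS CM against 0.132, 0.101 and 0.141 TPM in control. Both were called higher, at log2 fold changes of 0.68 and 0.62. Their ratios of mean TPM were 8.58 and 5.83, which shows how the added 1 TPM compresses changes at this level. With ESC CM neither was called. UGT1A3 then had 0.781, 0.294 and 0.721 TPM, a log2 fold change of 0.55 that was 0.69 and called without ESC CM replicate 2. UGT1A9 had 0.666, 0.405 and 0.419 TPM with CRC-MPS CM against 0.125, 0.138 and 0.197 TPM in control, and was not called in either comparison. UGT1A4, an enzyme of amine glucuronidation, was listed only with ESC CM, at 0.830, 0.886 and 0.773 TPM against 0.379, 0.324 and 0.375 TPM in control. It was not called, except with a pseudocount of 0.1, at 1.02. UGT1A5 was listed at 0 in all 3 CRC-MPS CM libraries, at 0, 0.145 and 0.194 TPM with ESC CM, and at 0 in all 3 control libraries.

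**Figure D2:**
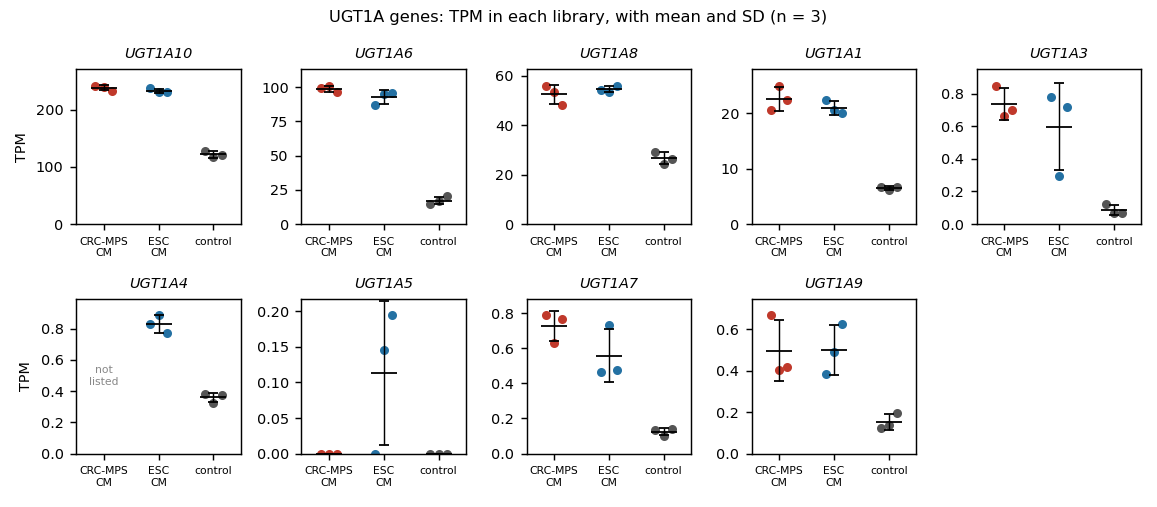
TPM (y axis, linear from 0) of the 9 UGT1A genes in each library (points) of the CRC-MPS CM, ESC CM and control groups, with mean and SD (n = 3). For UGT1A10, UGT1A6, UGT1A8 and UGT1A1 every CM library lies above every control library, while the genes of the lower levels stay under 1 TPM.

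Summed over the listed UGT1A genes, a quantity that depends less on how shared reads were split among them, the level was 419.9, 421 and 403 TPM with CRC-MPS CM, against 179, 164 and 175 TPM in control. With ESC CM the sum was 404, 404 and 406 TPM, against 178, 164 and 175 TPM in control. The make-up of the sum differed too. UGT1A6 was 23.7%, 24.0% and 23.9% of it with CRC-MPS CM and 8.24%, 10.1% and 11.6% in control, and 21.6%, 23.6% and 23.6% with ESC CM against 8.35%, 10.2% and 11.6% in control. UGT1A10 took 57.6%, 57.1% and 58.1% with CRC-MPS CM and 71.5%, 71.2% and 69.3% in control. The share of UGT1A6 was thus higher, and that of UGT1A10 lower, in every CM library than in every control library. Beyond this locus, UGT8, which makes galactosylceramide and conjugates no drug, had 37.0, 42.5 and 39.0 TPM with CRC-MPS CM against 30.3, 29.2 and 32.4 TPM in control and was not called. UGT2B11 stayed under 0.17 TPM and was not called.

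Aldehyde dehydrogenases moved in both directions. In family 1, whose members oxidize retinal and other aldehydes, 3 of 4 listed genes were called higher and 1 lower with CRC-MPS CM, and 3 of 5 higher and 1 lower with ESC CM. Beside these stand 20.4% of all genes called higher and 20.2% lower with CRC-MPS CM, and 17.6% and 20.2% with ESC CM. ALDH1A1, a retinal dehydrogenase used as a marker of colon stem and progenitor cells, had 339, 348 and 329.7 TPM with CRC-MPS CM, against 204, 197 and 197 TPM in control. Its ESC CM libraries had 383, 378 and 405 TPM, against 202, 196 and 197 TPM in control. Its CM libraries all lay above control, at a log2 fold change of 0.76 (SE 0.05, limma adjusted p = 8.60e-06) with CRC-MPS CM and 0.97 (SE 0.04, limma adjusted p = 2.67e-06) with ESC CM. ALDH1A3, another retinal dehydrogenase, had 9.003, 9.44 and 7.66 TPM with CRC-MPS CM against 3.42, 3.33 and 2.71 TPM in control, and 8.32, 8.85 and 8.68 TPM with ESC CM against 3.42, 3.33 and 2.72 TPM in control. A higher level was called, at 1.22 (SE 0.12, limma adjusted p = 5.66e-05) and 1.21 (SE 0.10, limma adjusted p = 2.76e-05). ALDH1A2, the third retinal dehydrogenase, was listed only with ESC CM, where it had 0.562, 0.225 and 0.421 TPM against 2.21, 2.64 and 3.83 TPM in control. It was called lower, at -1.46 (SE 0.16, limma adjusted p = 0.000133), the opposite direction to ALDH1A1 and ALDH1A3. The authors' mean normalized signal of ALDH1A2 in this comparison was only 10.4, against 275 for ALDH1A3 and 10340 for ALDH1A1. Its call thus rests on little signal. The same holds for calls of CYP4F2 (6.93 with CRC-MPS CM, 7.44 with ESC CM), CYP1A1 (10.1 with CRC-MPS CM) and CYP2C18 (11.6 with ESC CM). For UGT1A3 and UGT1A7 this signal was 16.1 and 16.2 with CRC-MPS CM.

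ALDH1B1, a mitochondrial acetaldehyde dehydrogenase, had 18.2, 18.1 and 17.4 TPM with CRC-MPS CM against 11.5, 11.8 and 11.1 TPM in control, and 19.5, 18.7 and 21.1 TPM with ESC CM against 11.4, 11.8 and 11.0 TPM in control. It was called higher, at 0.60 (SE 0.08, limma adjusted p = 0.000417) with CRC-MPS CM and 0.74 (SE 0.08, limma adjusted p = 0.000104) with ESC CM. The first of these calls was lost without control replicate 3, at 0.58. ALDH1L1, a folate enzyme, had 2.61, 2.25 and 2.41 TPM with CRC-MPS CM against 4.51, 3.08 and 5.60 TPM in control, and was called lower at -0.63 (SE 0.17, limma adjusted p = 0.0131). Without control replicate 3 the value was -0.47 and no longer called. With ESC CM its libraries overlapped control, at 3.13, 2.86 and 2.26 TPM against 4.49, 3.08 and 5.60 TPM in control, and it was called without control replicate 2, at -0.69.

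Among the other ALDH genes, 2 of 9 were called higher and 3 lower with CRC-MPS CM, and 3 of 11 higher and 1 lower with ESC CM. ALDH3A1, which oxidizes aromatic and lipid-derived aldehydes and is a known AHR target, had 15.1, 14.2 and 11.9 TPM with CRC-MPS CM, against 2.10, 2.24 and 1.86 TPM in control. The ESC CM libraries had 13.5, 14.3 and 14.8 TPM, against 2.08, 2.24 and 1.86 TPM in control. Its log2 fold change of 2.26 (SE 0.12, limma adjusted p = 3.72e-06) with CRC-MPS CM and 2.31 (SE 0.09, limma adjusted p = 2.12e-06) with ESC CM was second to that of UGT1A6. ALDH3A2, the fatty aldehyde dehydrogenase encoded on the same chromosome, had 67.2, 78.1 and 78.6 TPM with CRC-MPS CM against 41.2, 36.4 and 35.1 TPM in control, and 69.8, 68.7 and 69.8 TPM with ESC CM against 41.0, 36.3 and 35.0 TPM in control. Both comparisons called it higher, at 0.97 (SE 0.09, limma adjusted p = 3.67e-05) and 0.88 (SE 0.07, limma adjusted p = 1.81e-05). ALDH16A1 had 42.6, 42.1 and 40.7 TPM with ESC CM against 27.7, 25.3 and 26.6 TPM in control and was called higher, at 0.64 (SE 0.06, limma adjusted p = 6.13e-05). With CRC-MPS CM it had 36.4, 32.2 and 36.0 TPM, a log2 fold change of 0.38 under the minimum fold.

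ALDH5A1, the succinic semialdehyde dehydrogenase of GABA breakdown, had the deepest fall on the log2(TPM + 1) scale of the enzymes listed in both comparisons. By ratio of mean TPM, CRC-MPS CM first, ALDH5A1 (0.282 and 0.408) fell less than CYP2J2 (0.213 and 0.335) and CYP4F2 (0 and 0.122). It had 1.74, 1.34 and 1.28 TPM with CRC-MPS CM against 4.64, 5.21 and 5.62 TPM in control, and 1.74, 1.83 and 2.71 TPM with ESC CM against 4.60, 5.19 and 5.62 TPM in control. The groups did not overlap, and the log2 fold change was -1.33 (SE 0.12, limma adjusted p = 3.13e-05) with CRC-MPS CM and -0.999 (SE 0.14, limma adjusted p = 0.000419) with ESC CM. ALDH6A1, a mitochondrial enzyme of valine breakdown, had 2.47, 2.88 and 2.92 TPM with CRC-MPS CM against 5.65, 5.19 and 5.13 TPM in control and was called lower, at -0.75 (SE 0.10, limma adjusted p = 0.000365). The ESC CM libraries had 3.35, 3.20 and 3.30 TPM, a log2 fold change of -0.56 under the minimum fold. ALDH2, the main mitochondrial acetaldehyde dehydrogenase, had 57.0, 48.6 and 44.9 TPM with CRC-MPS CM against 73.3, 80.0 and 77.1 TPM in control. It was called lower at -0.61, and not without CRC-MPS CM replicate 3 (-0.54) or without control replicate 2 (-0.58). ALDH3B1, ALDH4A1, ALDH9A1, ALDH18A1 and ALDH3B2 were not called. The lowest of these, ALDH3B2, had 0.371, 0.421 and 0.381 TPM with ESC CM against 0.599, 1.43 and 1.04 TPM in control, and was called without control replicate 1, at -0.68, and with a pseudocount of 0.1, at -1.12.

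**Figure D3:**
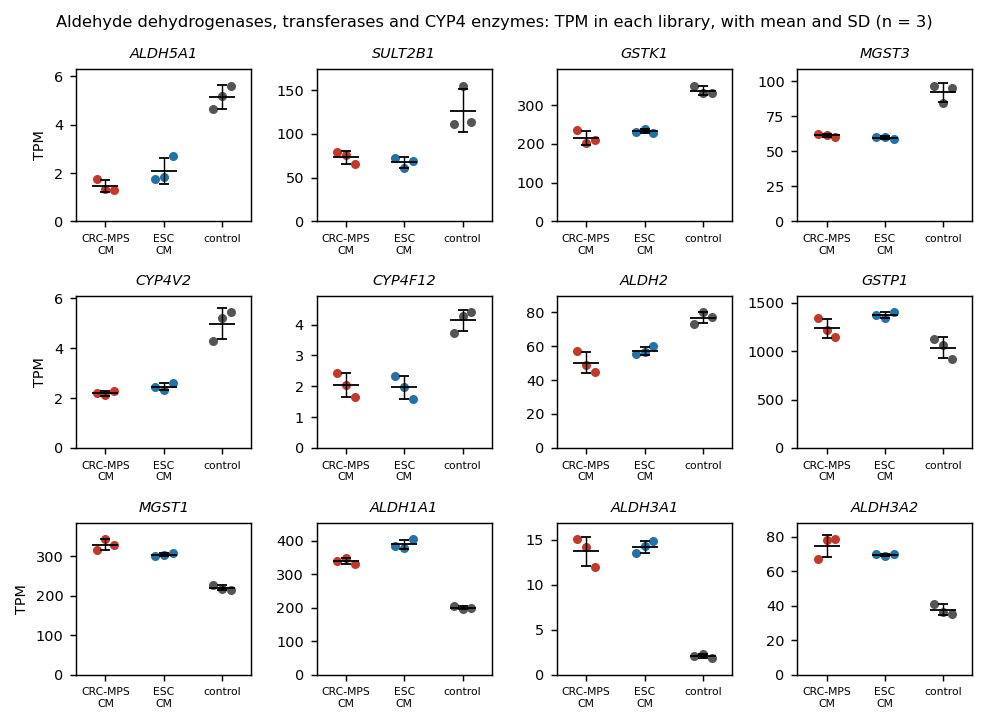
TPM (y axis, linear from 0) of 12 ALDH, SULT, GST, MGST and CYP4 genes in each library (points) of the CRC-MPS CM, ESC CM and control groups, with mean and SD (n = 3). ALDH5A1, SULT2B1, GSTK1, MGST3, CYP4V2, CYP4F12 and ALDH2 lie lower with both CM than in control, and GSTP1, MGST1, ALDH1A1, ALDH3A1 and ALDH3A2 lie higher.

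No glutathione S-transferase or microsomal transferase was called higher. GSTP1, which detoxifies electrophiles in most epithelia, was the most abundant of all the enzymes, with 1343, 1224 and 1146 TPM with CRC-MPS CM against 1129, 1066 and 919.5 TPM in control. ESC CM libraries had 1380.2, 1341 and 1404 TPM, against 1127, 1066 and 920.0 TPM in control. Every CM library lay above control, but the log2 fold changes, 0.26 for CRC-MPS CM and 0.41 for ESC CM, were under the minimum fold. MGST1, a membrane-bound transferase and peroxidase, had 317, 344 and 329 TPM with CRC-MPS CM against 229, 218 and 215 TPM in control. Its log2 fold change of 0.58 was just under the minimum fold, and it was called, at 0.61 each, without CRC-MPS CM replicate 1 or control replicate 1. GSTA4, which conjugates 4-hydroxynonenal, had 16.9, 17.4 and 17.5 TPM with CRC-MPS CM against 12.8, 11.4 and 13.2 TPM in control and was not called.

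Lower levels were called for GSTK1, GSTM4 and GSTZ1 of 7 listed GST genes with CRC-MPS CM, for 0 of 6 with ESC CM, and for MGST3 of 3 listed MGST genes with ESC CM. Among all genes 20.2% were called lower in either comparison. GSTK1, a mitochondrial and peroxisomal transferase, had 236, 201 and 209.7 TPM with CRC-MPS CM against 351, 331 and 332 TPM in control, at -0.65 (SE 0.07, limma adjusted p = 7.88e-05). With ESC CM it had 230.1, 239.9 and 229 TPM against 349, 330.0 and 332 TPM in control, and its log2 fold change of -0.53 was under the minimum fold at an adjusted p of 2.35e-05. GSTM4 had 1.55, 1.31 and 1.503 TPM with CRC-MPS CM against 3.02, 3.42 and 2.64 TPM in control, at -0.71 (SE 0.11, limma adjusted p = 0.000665). Its annotated gene overlaps GSTM2 on the same strand of chromosome 1, and their transcripts are 62.2% identical, so its value is uncertain where reads could come from either gene. Its ESC CM value of -0.54 was called without ESC CM replicate 3 or control replicate 3, at -0.61 each, and with a pseudocount of 0.1, at -0.75. GSTZ1, an enzyme of tyrosine breakdown, had 13.9, 12.4 and 11.4 TPM with CRC-MPS CM against 17.8, 21.0 and 19.6 TPM in control, at -0.59 (SE 0.10, limma adjusted p = 0.00149), and was not called without CRC-MPS CM replicate 3 (-0.53) or control replicate 2 (-0.54). MGST3 had 60.02, 60.3 and 58.3 TPM with ESC CM against 96.7, 84.1 and 95.2 TPM in control, at -0.62 (SE 0.06, limma adjusted p = 8.07e-05), and -0.58, no longer called, without control replicate 1. With CRC-MPS CM it had 62.3, 61.6 and 60.1 TPM, and its value of -0.57, just short of the minimum fold, was called without CRC-MPS CM replicate 1 (-0.59), without control replicate 2 (-0.64) and after the median log ratio of each library was set to 0 (-0.60). All CM libraries of MGST3 lay below all control libraries in both comparisons.

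Of the sulfotransferases, SULT2B1, which sulfonates cholesterol and steroids, had 78.8, 76.0 and 65.0 TPM with CRC-MPS CM, against 111, 155 and 114 TPM in control. Its levels with ESC CM were 72.3, 60.8 and 69.3 TPM, against 110.3, 155 and 113 TPM in control. It was called lower in both comparisons, at -0.77 (SE 0.13, limma adjusted p = 0.00114) with CRC-MPS CM and -0.88 (SE 0.13, limma adjusted p = 0.000531) with ESC CM, with no overlap between CM and control libraries. SULT1A4, a phenol and catecholamine sulfotransferase, had 9.58, 4.62 and 9.19 TPM with CRC-MPS CM against 1.94, 5.04 and 3.35 TPM in control, so CRC-MPS CM replicate 2 lay within the control range. It was called higher at 0.99 (SE 0.30, limma adjusted p = 0.0240), and the call was lost without CRC-MPS CM replicate 1 (0.83), CRC-MPS CM replicate 3 (0.86), control replicate 1 (0.72) or control replicate 3 (1.01). Its annotated transcript is 98.6% identical to that of SULT1A3, so how reads were split between the copies is uncertain. SULT1C2 was at or under 0.349 TPM in every library and was not called.

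The drug-metabolizing CYP families 1 to 3 held genes called in each direction, 3 higher and 2 lower of 9 with CRC-MPS CM and 2 higher and 0 lower of 7 with ESC CM. CYP1A1, the classical AHR target, had 0.567, 0.685 and 0.745 TPM with CRC-MPS CM, against 0, 0.0966 and 0.0568 TPM in control. Although low, all 3 libraries lay above control, at 0.66 (SE 0.09, limma adjusted p = 0.000286). With ESC CM it had 0.358, 0.403 and 0.710 TPM, all above control, and was not called, at 0.50 (limma adjusted p = 0.00555). With a pseudocount of 0.1 it was called with ESC CM too, at 1.97. CYP1B1, a second AHR target, which hydroxylates estradiol and polycyclic hydrocarbons, had 6.85, 7.25 and 6.94 TPM with CRC-MPS CM against 3.67, 2.82 and 4.46 TPM in control, and 6.87, 6.65 and 6.40 TPM with ESC CM against 3.65, 2.81 and 4.46 TPM in control. It was called higher with both, at 0.80 (SE 0.14, limma adjusted p = 0.00133) and 0.73 (SE 0.13, limma adjusted p = 0.00207). The annotated span of CYP1B1-AS1 overlaps that of CYP1B1 on the opposite strand of chromosome 2, and strand-specific counting is not stated. Reads from any stretch that both genes share may thus not be told apart, and their exons were not compared. The antisense gene had 8.46, 6.0003 and 6.25 TPM with CRC-MPS CM against 2.94, 4.43 and 4.67 TPM in control, and was called higher at 0.66 (SE 0.17, limma adjusted p = 0.0120), but not without CRC-MPS CM replicate 1 (0.53) or control replicate 1 (0.50). With ESC CM it overlapped control, at 0.43, and was called without ESC CM replicate 1, at 0.63.

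CYP3A7, the fetal form of the main drug-oxidizing subfamily, had 5.51, 4.50 and 5.06 TPM with CRC-MPS CM, against 2.42, 3.01 and 1.88 TPM in control. It was called higher at 0.82 (SE 0.14, limma adjusted p = 0.00122) and was not listed for ESC CM against control. CYP3A5, the most abundant of the listed CYP genes, was listed with ESC CM, at 154, 172 and 143 TPM against 191, 209 and 225 TPM in control, a difference of -0.41 on the log2 scale that was under the minimum fold although the libraries did not overlap. CYP2C18 had 0.654, 0.733 and 0.637 TPM with ESC CM against 0.121, 0.185 and 0 TPM in control and was called higher at 0.61 (SE 0.09, limma adjusted p = 0.000863), but not without ESC CM replicate 2 (0.58) or control replicate 3 (0.54). With CRC-MPS CM it had 0.523, 0.537 and 0.603 TPM, all above control. Its value there, 0.50, was under the minimum fold, and it was called with a pseudocount of 0.1, at 1.82. CYP2S1, an epithelial CYP, had 25.1, 20.8 and 20.8 TPM with CRC-MPS CM against 41.0, 31.3 and 32.0 TPM in control. It was called lower at -0.62 (SE 0.12, limma adjusted p = 0.00276), and not without CRC-MPS CM replicate 2 or 3 (-0.57 each) or control replicate 1 (-0.50). CYP2D6, a drug-oxidizing enzyme, had 0.640, 0.727 and 0.908 TPM with CRC-MPS CM against 1.76, 1.41 and 1.84 TPM in control, and was called lower at -0.60, a call lost without CRC-MPS CM replicate 1 (-0.55), control replicate 1 (-0.58) or control replicate 3 (-0.56). CYP2J2, an epoxygenase of arachidonic acid, had 0.148, 0.168 and 0.150 TPM with CRC-MPS CM against 0.704, 0.840 and 0.641 TPM in control. Its value of -0.58 fell just short of the minimum fold, and it was called without CRC-MPS CM replicate 2 (-0.59), control replicate 1 (-0.59) or control replicate 3 (-0.62). With ESC CM, CYP2S1 (-0.40), CYP2D6 (-0.48) and CYP2J2 (-0.47) also lay below control in every library and were under the minimum fold. CYP2B6 and CYP2W1 were not called. CYP2B6 was called without control replicate 2, at 0.59, and both were called with a pseudocount of 0.1, CYP2B6 at 0.60 and CYP2W1 at -0.86.

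The CYP4 enzymes, which hydroxylate fatty acids and eicosanoids at the omega end, were called lower in 3 of 5 listed genes with CRC-MPS CM and in 3 of 3 with ESC CM, and none was called higher. Beside these few genes, 20.2% of all genes were called lower in either comparison. CYP4V2, which acts on medium-chain fatty acids, had 2.18, 2.10 and 2.29 TPM with CRC-MPS CM against 4.29, 5.22 and 5.44 TPM in control, and 2.46, 2.34 and 2.59 TPM with ESC CM against 4.26, 5.21 and 5.43 TPM in control. It was called lower at -0.90 (SE 0.11, limma adjusted p = 0.000189) and -0.78 (SE 0.11, limma adjusted p = 0.000414). CYP4F12 had 2.42, 2.05 and 1.64 TPM with CRC-MPS CM against 3.74, 4.27 and 4.40 TPM in control, and 2.35, 1.97 and 1.60 TPM with ESC CM against 3.72, 4.26 and 4.40 TPM in control. It too was called lower, at -0.76 (SE 0.12, limma adjusted p = 0.000937) and -0.79 (SE 0.12, limma adjusted p = 0.000685). CYP4F2, a vitamin K and leukotriene hydroxylase, was listed at 0 in all 3 CRC-MPS CM libraries, against 0.351, 0.706 and 0.833 TPM in control, and was called lower. With ESC CM it had 0, 0.115 and 0.116 TPM against 0.351, 0.706 and 0.837 TPM in control, at -0.59 (SE 0.13, limma adjusted p = 0.00494), a call lost without ESC CM replicate 1 (-0.54), control replicate 2 (-0.55) or control replicate 3 (-0.50). The CYP4F transcripts are 77.8% to 85.0% identical to each other. Their neighbour CYP4F11 had the opposite sign, with 0.957, 0.899 and 0.986 TPM with CRC-MPS CM against 0.342, 0.390 and 0.557 TPM in control, and was not called at 0.45. CYP4B1 was listed at 0 in all CRC-MPS CM libraries, against 0.468, 0.108 and 0.179 TPM in control, and was not called. With a pseudocount of 0.1, CRC-MPS CM against control called CYP4F11 higher, at 1.00, and CYP4B1 lower, at -1.68.

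The CYP enzymes of steroids, retinoids, vitamin D and cholesterol, and the orphan CYP20A1, held no call in any comparison. CYP19A1, the aromatase that makes estrogen, had 1.07, 0.855 and 0.235 TPM with CRC-MPS CM against 0.0797, 0.0285 and 0.507 TPM in control, so the groups overlapped. It was called without CRC-MPS CM replicate 3 (0.72) or control replicate 3 (0.67). CYP26B1, which degrades retinoic acid, had 0.132, 0.282 and 0.463 TPM with CRC-MPS CM against 0.649, 0.835 and 0.493 TPM in control, below control in every library but not called. CYP24A1, which degrades vitamin D, had 3.23, 3.00 and 4.22 TPM with ESC CM against 4.05, 4.12 and 4.25 TPM in control and was not called.

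Sums of TPM over the listed genes of a class show where the bulk of the transcripts lay. The GST sum was the largest, at 1507 ± 115 TPM with CRC-MPS CM and 1438 ± 112 TPM in control (SD, n = 3 each) over 7 genes, and the values overlapped. With ESC CM it was 1851 ± 32.4 TPM against 1602 ± 125 TPM in control over 6 genes, a ratio of 1.16, and the values did not overlap. The UGT1 sum was 415 ± 10.5 TPM with CRC-MPS CM and 173 ± 7.54 TPM in control, a ratio of 2.40, and 404 ± 1.23 TPM with ESC CM against 172 ± 7.24 TPM in control, a ratio of 2.35. Among the other enzyme classes ALDH family 1 came next in ratio, at 368 ± 10.2 TPM with CRC-MPS CM and 218 ± 4.26 TPM in control (1.68), nearly all of it ALDH1A1. The CYP4 sum was far smaller and lower with CM, at 5.18 ± 0.343 TPM with CRC-MPS CM and 10.4 ± 1.13 TPM in control (0.496). These sums cover only listed genes and were not tested.

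**Figure D4:**
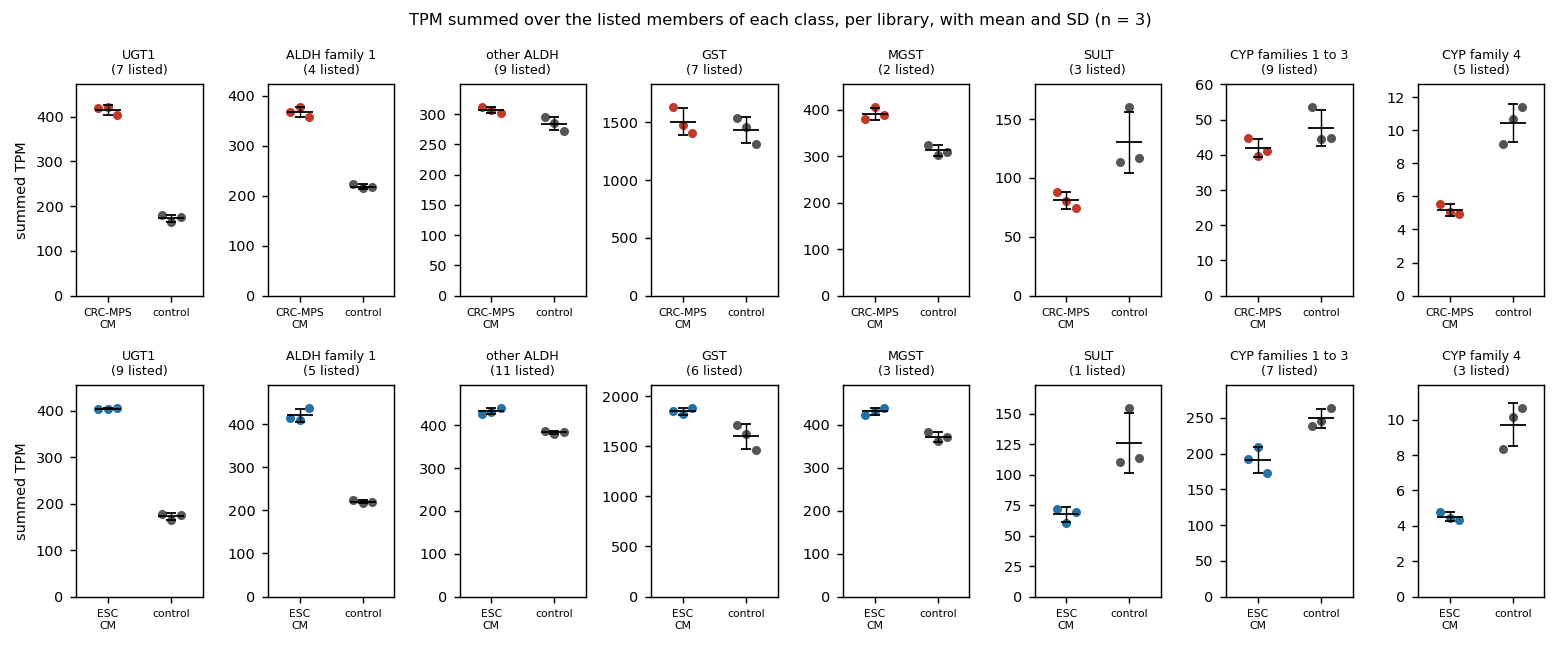
TPM summed over the listed genes of 8 enzyme classes (panels; y axis linear from 0) in each library (points), with mean and SD (n = 3), for CRC-MPS CM against control (top row) and ESC CM against control (bottom row). The number of genes differs between rows because the tables list different genes, and UGT1 has the highest ratio of CM to control in both rows (2.40 and 2.35).

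Genes that supply cofactors, export conjugates or act beside these enzymes were followed as a list of 33. With CRC-MPS CM against control, 7 of 26 listed genes were called higher and 4 lower, beside 20.4% and 20.2% of all genes in that comparison. With ESC CM 6 of 23 were called higher and 5 lower, beside 17.6% and 20.2% of all genes. On the glucuronidation side, UGDH, which makes UDP-glucuronic acid, had 167 ± 10.3 TPM with CRC-MPS CM and 68.0 ± 1.88 TPM in control (SD, n = 3 each), a log2 fold change of 1.28, and UGP2, which makes its precursor UDP-glucose, had 129.98 ± 5.31 TPM with CRC-MPS CM and 72.3 ± 5.61 TPM in control, at 0.84. SLC35D1, which carries UDP-glucuronic acid into the endoplasmic reticulum, was called lower, with 3.23 ± 0.181 TPM with CRC-MPS CM and 5.61 ± 0.0520 TPM in control. PAPSS2, which makes the sulfate donor, had 21.1 ± 2.56 TPM with CRC-MPS CM and 39.7 ± 5.26 TPM in control, at -0.88. POR, the electron donor of microsomal CYP enzymes, had 51.2 ± 0.341 TPM with ESC CM and 77.4 ± 1.74 TPM in control and was called lower at -0.59, while its value of -0.58 with CRC-MPS CM was under the minimum fold. GCLM, the modifier subunit of the first enzyme of glutathione synthesis, had 99.4 ± 7.02 TPM with CRC-MPS CM and 28.9 ± 1.14 TPM in control, at 1.75. Of the exporters, ABCG2 had 30.6 ± 1.31 TPM with CRC-MPS CM and 11.6 ± 0.944 TPM in control, at 1.33, and ABCC2, which exports glucuronides, had 1.93 ± 0.276 TPM with CRC-MPS CM and 0.392 ± 0.163 TPM in control, at 1.08. ABCB1, which exports many drugs, had 0.163 ± 0.0396 TPM with ESC CM and 0.859 ± 0.276 TPM in control and was called lower, at -0.67, while its value of -0.52 with CRC-MPS CM was not called. ABCC3, another exporter of glucuronides, had 157 ± 8.30 TPM with CRC-MPS CM and 202 ± 18.7 TPM in control, lower in every library but not called, at -0.36.

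A list of 15 regulators of these genes could be called only where listed, and 0 were called higher in any comparison. Of 7 listed with CRC-MPS CM, 3 were called lower, and of 12 listed with ESC CM, 2 were. The share called lower was 20.2% of all genes in either comparison with control. AHR was listed only between the 2 CM, where it was not called. NFE2L2 was not listed where CRC-MPS CM was compared to control, and it was not called elsewhere. NR1I2, which encodes PXR, had 0.0466 ± 0.00557 TPM with CRC-MPS CM and 0.807 ± 0.212 TPM in control, and CDX2, an intestinal transcription factor, had 2.95 ± 0.327 TPM with CRC-MPS CM and 10.9 ± 1.22 TPM in control. TIPARP, an AHR target and inhibitor, had 63.4 ± 3.49 TPM with CRC-MPS CM and 47.0 ± 2.61 TPM in control and was not called.

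The promoters were read for letters of the AHR element (core GCGTG) and of the NRF2 element (core TGACNNNGC), both strands, in RefSeq windows of GRCh38.p14 from 250 bases before to 50 bases after each gene's start. Such a window was at hand for 51 of the 63 genes. The AHR core was found in 20 of the 51 windows, beside 36.3% of 27305 windows of all genes, and the NRF2 core in 9 of the 51, beside 13.6%. The 18 genes called higher against control in at least 1 comparison had 13 windows, 7 of them with the AHR core and 0 with the NRF2 core. The 15 called lower had 12 windows, 7 with the AHR core and 1 with the NRF2 core, so the AHR core was not confined to windows of genes called higher. The 30 genes not called against control had 26 windows, 6 with the AHR core and 8 with the NRF2 core. The 5 windows below are those of the UGT1A gene with the largest log2 fold change, the classical AHR target, 2 further genes with 2 AHR cores each that were called in opposite directions, and the most abundant enzyme. They are printed 5′ to 3′ on the strand of the gene, at chr2:233691452-233691751 (plus) for UGT1A6, chr15:74725479-74725778 (minus) for CYP1A1, chr15:100879581-100879880 (plus) for ALDH1A3, chr19:48551922-48552221 (plus) for SULT2B1 and chr11:67583562-67583861 (plus) for GSTP1, with either core in capitals.
UGT1A6: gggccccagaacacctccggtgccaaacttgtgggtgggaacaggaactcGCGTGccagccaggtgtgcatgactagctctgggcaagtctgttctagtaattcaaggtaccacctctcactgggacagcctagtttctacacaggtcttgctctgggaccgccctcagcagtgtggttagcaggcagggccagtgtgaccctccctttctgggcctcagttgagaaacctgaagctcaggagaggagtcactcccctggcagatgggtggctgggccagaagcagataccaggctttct
CYP1A1: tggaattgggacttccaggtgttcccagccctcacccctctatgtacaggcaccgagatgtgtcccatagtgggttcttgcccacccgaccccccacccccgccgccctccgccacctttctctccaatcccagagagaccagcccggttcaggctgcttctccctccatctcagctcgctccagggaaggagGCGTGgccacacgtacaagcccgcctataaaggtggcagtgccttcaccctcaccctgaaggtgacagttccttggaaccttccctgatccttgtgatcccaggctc
ALDH1A3: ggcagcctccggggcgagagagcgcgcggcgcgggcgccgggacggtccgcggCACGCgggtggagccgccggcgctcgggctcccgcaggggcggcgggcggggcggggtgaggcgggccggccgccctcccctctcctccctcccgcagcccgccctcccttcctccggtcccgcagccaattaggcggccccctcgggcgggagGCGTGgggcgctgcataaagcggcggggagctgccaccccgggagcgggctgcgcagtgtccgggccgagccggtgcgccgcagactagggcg
SULT2B1: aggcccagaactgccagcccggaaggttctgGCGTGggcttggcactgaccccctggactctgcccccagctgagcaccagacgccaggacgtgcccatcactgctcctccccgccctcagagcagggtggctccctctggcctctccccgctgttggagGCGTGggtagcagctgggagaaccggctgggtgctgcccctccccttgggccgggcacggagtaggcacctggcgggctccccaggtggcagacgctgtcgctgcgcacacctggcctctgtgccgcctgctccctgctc
GSTP1: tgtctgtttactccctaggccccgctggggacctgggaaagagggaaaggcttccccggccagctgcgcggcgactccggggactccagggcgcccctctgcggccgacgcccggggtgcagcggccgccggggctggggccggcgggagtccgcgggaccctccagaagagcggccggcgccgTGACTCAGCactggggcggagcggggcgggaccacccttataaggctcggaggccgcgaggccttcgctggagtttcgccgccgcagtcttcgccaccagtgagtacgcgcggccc
The RefSeq start of UGT1A6 lies upstream of the GENCODE first exon described above, so its window belongs to another annotated start. The AHR core begins 200 bases before the RefSeq start site in UGT1A6, 57 bases before it in CYP1A1, 197 and 43 bases before it in ALDH1A3, and 219 and 90 bases before it in SULT2B1. The capitals in GSTP1 are an NRF2 core 66 bases before its start. ALDH1A3 was called higher and SULT2B1 lower with both CM, while GSTP1 was not called. A match of letters is a description of the window and not a bound site.

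Between the 2 CM, none of the 17 listed enzymes was called by limma, beside 1.41% of the 2835 genes in that table (1.06% called higher and 0.353% called lower). Leaving out each library in turn gave between 9 (without ESC CM replicate 2) and 153 (without CRC-MPS CM replicate 1) called genes in the whole table, against 40 with all 6 libraries, and 0 called enzymes each time. At an unadjusted p under 0.05 there were 12 of the 17, beside 63.2% of the table, and adjustment over the listed genes alone called CYP3A7. In 6 enzymes every CRC-MPS CM library lay above every ESC CM library, in 6 below, and in 5 the groups overlapped, so 12 of 17 did not overlap, beside 63.6% of all genes in the table (36.8% higher and 26.8% lower). The median log2 fold change of the whole table was 0.15, and that of the enzymes was -0.15. Setting the median log ratio of each library to 0 lowered these values by about 0.09, and no sign turned.

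CYP3A7 had 5.51, 4.48 and 5.07 TPM with CRC-MPS CM against 3.13, 3.10 and 2.11 TPM with ESC CM, the largest difference at 0.68 on the log2 scale (limma adjusted p = 0.104), and 0.59 after the medians were set to 0. CYP20A1 had 9.71, 10.9 and 11.1 TPM with CRC-MPS CM against 7.37, 6.63 and 7.17 TPM with ESC CM, at 0.52 (limma adjusted p = 0.0769). GSTA4 had 16.9, 17.3 and 17.5 TPM with CRC-MPS CM against 12.5, 12.1 and 12.3 TPM with ESC CM, at 0.45 (limma adjusted p = 0.0723). These 3 genes, with CYP4F11, CYP3A5 and UGT1A6, were the ones in which no libraries overlapped and CRC-MPS CM was higher. CYP3A5 had 210.2, 181 and 215 TPM with CRC-MPS CM against 154, 172 and 143 TPM with ESC CM, at 0.37 (limma adjusted p = 0.164). UGT1A6 had 99.5, 101 and 96.4 TPM with CRC-MPS CM against 87.2, 95.5 and 96.1 TPM with ESC CM, at 0.09, which was 0.0045 after the medians were set to 0.

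In the other direction, GSTZ1 had 13.9, 12.4 and 11.4 TPM with CRC-MPS CM against 17.0, 17.0 and 15.8 TPM with ESC CM, at -0.38 (limma adjusted p = 0.186). ALDH7A1, which breaks down lysine, had 38.0, 34.4 and 35.6 TPM with CRC-MPS CM against 41.1, 43.6 and 47.4 TPM with ESC CM, at -0.28 (limma adjusted p = 0.243). ALDH1A1, ALDH16A1, ALDH18A1 and CYP4B1 also lay lower in every CRC-MPS CM library, CYP4B1 being listed at 0 in all 3 of them against 0.222, 0.533 and 0.164 TPM with ESC CM. ALDH1A1 had 338, 345 and 329.7 TPM with CRC-MPS CM against 381, 377 and 404 TPM with ESC CM, at -0.20. None of these differences passed the threshold, which does not show that the levels were equal.

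**Figure D5:**
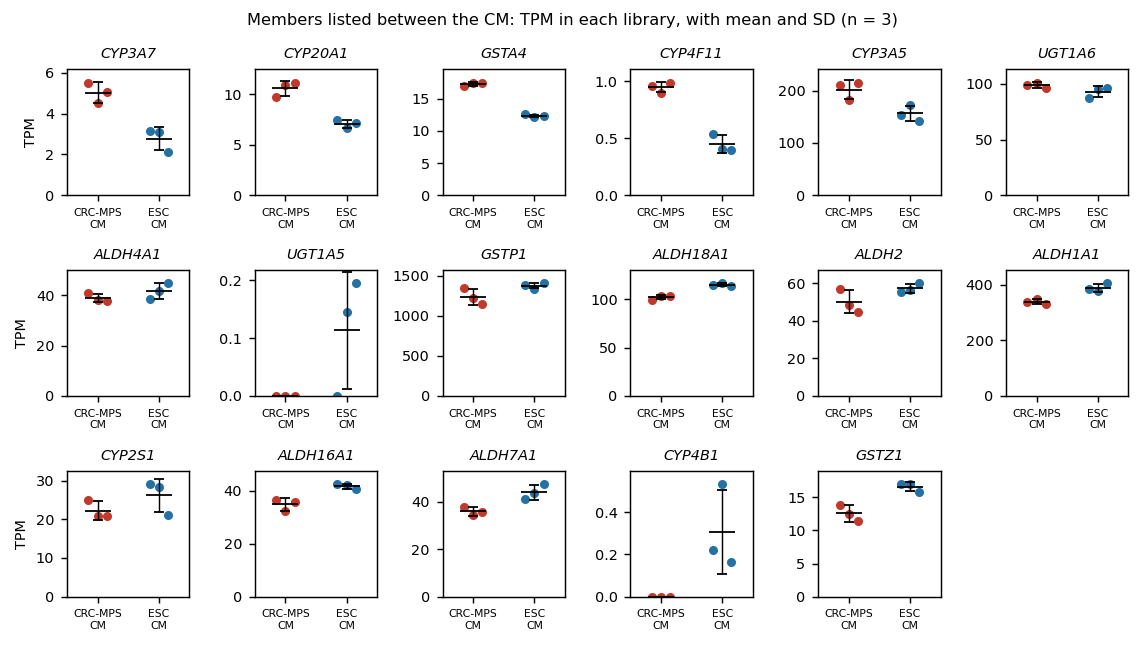
TPM (y axis, linear from 0) of the 17 enzymes listed between the CM in each library (points) of the CRC-MPS CM and ESC CM groups, with mean and SD (n = 3), in order of log2 fold change. CYP3A7 (0.68) comes first, and none was called.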

How the data were processed

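RNA-seq libraries of HT29 cells were made in triplicate for CRC-MPS CM, ESC CM and control, 9 in all. Genome build hg38 and the tools kallisto 0.46.0, STAR 2.6.1d and DESeq2 are named in the submitters' processing notes, without the annotation or the DESeq2 version. The authors deposited 1 table per comparison, restricted to genes with a p under 0.05 in their test. The deposited values per library fit TPM, although the headers do not name the unit. The authors' deposited mean level is a normalized signal over the 6 libraries of a table. The authors' fold changes and p-values were not used.

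Enzymes were matched by gene name. The members and gene lists were chosen with earlier results of these data known. For each comparison, limma 3.58.1 (R 4.3.3) was fitted over all genes of its table on log2(TPM + 1) with a trend and no covariate, two-sided, and p was adjusted by Benjamini-Hochberg as over 20000 genes, with unlisted genes counted as not significant. Calls needed an adjusted p under 0.05 and a fold over 1.5. Full statistics were given for at most 4 called genes per class and comparison with the largest change. The step was tested on simulated data. Coordinates and exons came from GENCODE release 29 (hg38) and promoter windows from RefSeq (GRCh38.p14). Alternatives were pseudocounts of 0.1 and 5, a mean TPM of at least 1, adjustment over listed genes alone, no minimum fold, a fold over 2, median scaling, no trend, replicate number as a block, and each library left out. Python 3.11.15, pandas 2.3.3, numpy 2.4.6 and matplotlib 3.10.9 were used. Counts were not at hand, so no count test was run.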

Additional observations from a re-analysis of the deposited data

How the results depend on the processing

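No sign turned in any of the 714 values of called enzymes or the 1040 values of enzymes not called under the alternatives. Of the 714, 626 stayed called and 88 did not, mostly with a fold over 2 or a pseudocount of 5. With CRC-MPS CM against control, 29 calls became 12 (9 higher, 3 lower) with a pseudocount of 5, 45 (26 higher, 19 lower) with no minimum fold and 5 with a fold over 2. Calls among all 10019 genes went from 4068 to 2390, 8316 and 1312 in that order. With ESC CM against control, 19 calls became 31 (17 higher, 14 lower) with a pseudocount of 0.1, 10 (9 higher, 1 lower) with a pseudocount of 5, 43 (23 higher, 20 lower) with no minimum fold and 6 with a fold over 2. Among all 10007 genes, 3780 calls became 4669, 2212, 8452 and 1187 in that order. A larger pseudocount compresses low genes most by construction, but calls near the minimum fold were also lost at higher levels, such as ALDH2 (-0.57) and CYP2S1 (-0.54) with a pseudocount of 5. Between the CM, 0 calls became 1, CYP3A7, with adjustment over the listed genes alone, and stayed 0 under every other alternative. That adjustment took the calls among all genes from 40 to 157. Leaving out each library gave 26 to 29 calls with CRC-MPS CM, 18 to 20 with ESC CM and 0 to 0 between the CM. Of 48 calls, 37 held without each library in turn, and 11 were lost without at least 1 library, while 10 of 71 values not called were called without at least 1. Whether libraries with the same replicate number shared a culture or batch is not stated. Correlations of same-numbered deviations lay between -0.356 and 0.179. Deviations within a group sum to 0 by construction, so these correlations cannot decide it. With replicate number as a block the calls of enzymes stayed at 29, 19 and 0, while the called genes of all kinds between the CM went from 40 to 20. Depth is unknown, genes the tables leave out could not be tested, and calls near the minimum fold or below 1 TPM depend on the pseudocount.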
